A study of Mus musculus with 10 samples.

Results

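The transcription factor ATF4 and 9 genes tied to its response were followed in the inflamed mouse colon: Atf4, Ddit3, Trib3, Chac1, Asns, Psat1, Phgdh, Psph, Shmt2 and Mthfd2. The genes were chosen by name, with earlier results of these data known. Every probe set annotated to 1 of them alone was taken. This gave 23 of the 34945 probe sets with a single gene and 10 of the 18193 genes measured. Each array measured RNA from the distal colon of a single mouse, C57BL/6 in strain and Rag1-/- in genotype, and such mice lack their own T and B cells. In the 3 severely and 3 moderately inflamed mice, naïve T cells had been injected and had brought on T-cell transfer (TCT) colitis. The 4 control mice were of the same genotype and received regulatory T cells (Tregs) instead, so injected T cells were common to all 10 animals. All mice were injected at 10 weeks of age and taken 2 to 3 months later, at 4 to 5 months of age. The labels grade the inflammation as severe or moderate without giving a score, and there was no array of an uninjected or wild-type mouse. Each value is the log2 expression of a probe set, and a gene is given by its brightest probe set unless another is named. Levels are compared between colons for 1 probe set at a time and never between genes, and how precise they are is set by how few arrays there are.

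ATF4 is the effector of the integrated stress response. Kinases that sense amino acid shortage, unfolded protein, viral RNA or lack of heme phosphorylate the initiation factor eIF2, which slows most translation and favours that of the Atf4 transcript, so the amount of its messenger RNA need not follow the amount of the protein. The mTORC1 kinase also raises ATF4 translation in growing cells. Its targets include amino acid transporters, asparagine synthetase and the enzymes that make serine from a glycolytic intermediate and pass the carbon of serine to mitochondrial folate, which supplies purine and thymidylate synthesis in dividing cells. A stress arm with Ddit3, Trib3 and Chac1 is often told apart from a biosynthetic arm with Asns and the serine and folate enzymes.

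ATF4 binds with C/EBP proteins to a composite element whose core reads TGATGNAA. On either strand this core was found in 3 of the 11 promoters listed for the 10 genes, those of Trib3, Chac1 and Asns, against 3.97% of 32851 mouse promoters of the same length (250 bases before to 50 after the start, RefSeq, GRCm38.p6). They are printed because the 3 genes, all higher in inflamed colon, differ in size of change, with the core in capitals (Asns on the gene's own strand, 23 bases before the start; Chac1 on the other strand, 193 bases before; Trib3 on the other strand, 15 bases after):
Asns, chr6:7693210-7693252, minus strand: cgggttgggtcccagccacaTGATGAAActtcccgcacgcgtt
Chac1, chr2:119351029-119351076, plus strand: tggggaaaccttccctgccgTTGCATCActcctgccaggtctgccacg
Trib3, chr2:152344028-152344057, minus strand: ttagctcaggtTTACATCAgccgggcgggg

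A shorter related word, TGCAATC, was searched after the promoters had been read and stood in those of Trib3 and Psat1, against 2.02% of all promoters. It lay on the gene's own strand, 30 bases before the start in Trib3 and 133 bases before it in 1 of the 2 promoters listed for Psat1:
Trib3, chr2:152344064-152344110, minus strand: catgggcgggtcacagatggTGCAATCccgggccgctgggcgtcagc
Psat1, chr19:15925166-15925212, minus strand: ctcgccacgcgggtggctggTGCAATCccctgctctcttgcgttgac
The E-box CACGTG, read by MYC among others, was in 0 of the 11 promoters and in 7.15% of all. These are matches of letters and not measured binding sites, and they do not overlap each other. The core TGATGNAA was in none of the promoters listed for Psat1, Phgdh, Psph, Shmt2 and Mthfd2, which were also higher in inflamed colon.

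Pan-epithelial markers were high in every colon. Their mean over 11 genes lay between 12.33 and 12.57 in inflamed and between 12.30 and 12.42 in control colons. Of the 11 genes 3 rose and 0 fell, and the region of the colon was not checked by them. Rag1, the disrupted gene, averaged 4.94 ± 0.075 (SD, n = 6) in inflamed and 5.05 ± 0.089 (SD, n = 4) in control colons, but with no wild-type array, and its probes not placed against the deletion, this checks no label. Marker genes of several cell types differed between inflamed and control colons. For the counts in this paragraph, 18.5% of all genes were called higher and 21.2% lower in the same comparison. The list mean of 10 T cell genes was 6.10 to 6.96 in inflamed and 5.04 to 5.15 in control colons, and 9 of the 10 genes rose, with Cd3g and Cd28 below the lower quartile of all values (3.86) in control. Macrophage and monocyte genes had a list mean of 8.21 to 9.56 against 6.72 to 6.90 in control (9 of 9 rose, Itgam below the lower quartile in control). Neutrophil genes stood at 6.42 to 8.69 against 4.45 to 5.02 in control (8 of 9 rose, Mmp8 below it in control). Dividing cell genes stood at 9.02 to 9.66 against 8.56 to 8.76 in control (9 of 11 rose). Absorptive colonocyte genes stood at 9.74 to 11.18 against 12.22 to 12.40 in control (7 of 11 fell and Krt20 rose), goblet cell genes at 11.31 to 12.11 against 12.13 to 12.36 in control (4 of 10 fell) and smooth muscle genes at 8.96 to 9.74 against 10.77 to 11.12 in control (10 of 10 fell). These lists move with every difference between inflamed and control colon given below, and their part in it was not tested. In pieces of whole tissue, more or fewer cells of a type and more or less RNA per cell cannot be told apart.

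The first comparison asked which of these genes differ between inflamed and control colon. Of the 10 genes, 8 rose in inflamed colon, Ddit3 fell and the brightest probe set of Atf4 did not pass the test (two-sided limma test, p-values adjusted over all genes by Benjamini-Hochberg, threshold 0.05). Over all genes, 18.5% were called higher and 21.2% lower. The median log2 difference of the 10 genes was 1.27, against 0.03 over all genes. The genes, and the lists below, were chosen with earlier results known, so counts and medians set beside all genes are a description. The values of the 6 inflamed and 4 control colons did not overlap for 8 of the 10 genes, all but Atf4 and Trib3, and did not overlap for 31.7% of all genes. Among the 23 probe sets, tested beside all others with a single gene, 19 were higher, 2 were lower and 2 did not pass. Over all probe sets 16.5% were higher and 19.4% lower. The 23 measure the same 10 genes repeatedly, and 18 of them had no overlap. The share without overlap was counted over genes only, so this count has no share over all probe sets to stand against. All 10 genes had a mean above the lower quartile of all values.

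**Figure D1:**
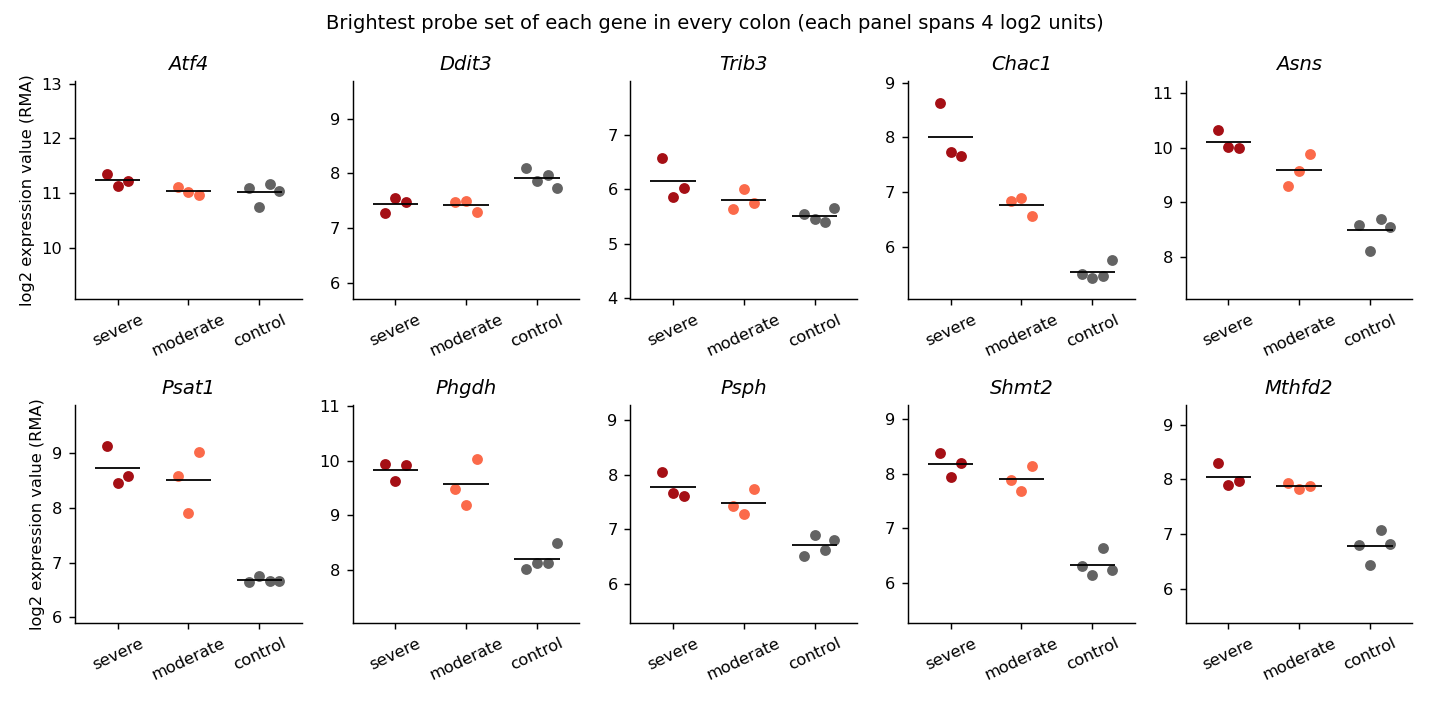
Log2 expression value (vertical axis, each panel 4 log2 units tall) of the brightest probe set of each gene in 3 severely inflamed, 3 moderately inflamed and 4 control colons, 1 point per mouse, with the group mean as a bar. The inflamed points lie above every control point in 7 panels, below every control point for Ddit3, and overlap the controls for Atf4 and Trib3.

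Atf4, the transcription factor itself, gave an answer that depended on the probe set. The brightest probe set read 11.36, 11.13 and 11.22 in severe, 11.11, 11.02 and 10.97 in moderate and 11.09, 10.75, 11.16 and 11.04 in control colons. The moderate colons lay within the range of the controls and 2 of the 3 severe colons lay above it. The log2 difference between inflamed and control colon was 0.12 with a standard error of 0.10 (limma adjusted p = 0.352).

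The second probe set of Atf4 read 10.28, 10.11 and 10.20 in severe, 9.76, 9.73 and 9.78 in moderate and 9.32, 9.17, 8.82 and 9.26 in control colons. Here the 3 groups were fully apart, with the severe colons highest and the controls lowest. Its difference was 0.83 with a standard error of 0.14, or 1.78-fold (limma adjusted p = 0.000447 over all probe sets). The last and dimmest probe set of Atf4 read 4.12, 4.27 and 4.04 in severe, 4.10, 4.04 and 3.86 in moderate and 3.79, 3.90, 3.80 and 3.90 in control colons, with 1 moderate colon inside the control range. It differed by 0.22 (standard error 0.08, adjusted p = 0.0477). Its control mean, 3.85, lay below the lower quartile of all values (3.86). The mean over the 3 probe sets differed by 0.39 and passed the test over all genes (adjusted p = 0.00279). The second probe set carries the suffix that the manufacturer gives to probe sets some of whose probes may also bind other transcripts. Of the 23 probe sets 10 carry it, and which of the Atf4 probe sets follows the transcript more closely was not tested.

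Over the 10 arrays, the genes whose pattern was most like that of the brightest Atf4 probe set were Lmln, Get4, Plcd3, Tanc1 and Vps39, with Pearson's r of 0.94, 0.92, 0.91, 0.89 and 0.88. This is a description of 10 arrays that share their processing, and none of the other 9 genes was among these 5. Over the same arrays, r of this Atf4 probe set with the other 9 genes ran from -0.31 for Ddit3 to 0.66 for Chac1.

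Ddit3, which encodes CHOP, the factor that ATF4 induces when stress is prolonged and that favours cell death, went the other way from the rest. It read 7.28, 7.56 and 7.47 in severe, 7.47, 7.50 and 7.29 in moderate and 8.10, 7.85, 7.97 and 7.73 in control colons. Every inflamed colon was below every control, and severe and moderate colons covered the same range. As a log2 difference Ddit3 fell by 0.49 with a standard error of 0.09, or 1.40-fold (limma adjusted p = 0.000937). Its dimmer probe set also fell, by 0.31 (adjusted p = 0.0486), with severe replicate 2 at 5.76, inside the control range.

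Trib3, a pseudokinase that CHOP and ATF4 induce and that restrains ATF4, read 6.57, 5.86 and 6.02 in severe, 5.63, 5.99 and 5.75 in moderate and 5.54, 5.45, 5.39 and 5.66 in control colons. Severe replicate 1 stood well above the others and moderate replicate 1 fell inside the control range. Trib3 rose by 0.46 (standard error 0.15, limma adjusted p = 0.0315), or 1.38-fold. The call was lost by a small margin when any of 5 single colons was left out: adjusted p = 0.0621, 0.0748 and 0.0879 without control replicate 1, 2 or 3, 0.0566 without severe replicate 3 and 0.0507 without moderate replicate 2. It was also lost under the methods' t-test (adjusted p = 0.0699) and with the replicate number as a block (adjusted p = 0.0563). The dimmer probe set differed by 0.59 and did not pass (adjusted p = 0.0604).

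Chac1, an enzyme that degrades glutathione and is a sensitive target of ATF4, read 8.64, 7.74 and 7.66 in severe, 6.84, 6.88 and 6.56 in moderate and 5.50, 5.43, 5.46 and 5.75 in control colons. The 3 groups did not overlap. Chac1 rose by 1.85 (standard error 0.34, limma adjusted p = 0.000989), or 3.61-fold, and it is measured by 1 probe set. Asns, which makes asparagine from aspartate and glutamine, read 10.33, 10.02 and 9.99 in severe, 9.30, 9.58 and 9.89 in moderate and 8.59, 8.12, 8.70 and 8.56 in control colons. The groups again did not overlap. Asns rose by 1.36 (standard error 0.18, adjusted p = 0.000128), or 2.57-fold, and by 1.61 in its second probe set.

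All 3 enzymes of serine synthesis rose. Phgdh, which oxidises 3-phosphoglycerate in the first step, read 9.94, 9.62 and 9.92 in severe, 9.47, 9.19 and 10.03 in moderate and 8.02, 8.13, 8.12 and 8.48 in control colons. The highest value was that of a moderate colon. Phgdh rose by 1.51 (standard error 0.16, limma adjusted p = 2.86e-05), or 2.84-fold. Its 3 dimmer probe sets rose by 1.41, 0.65 and 1.09, and all 4 carry the suffix for possible cross-binding. A further 2 probe sets are annotated to Phgdh together with another gene and were left out.

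Psat1, the aminotransferase of the second step, had the smallest spread among controls of the 10 genes (SD 0.044, n = 4). It read 9.14, 8.46 and 8.58 in severe, 8.59, 7.90 and 9.03 in moderate and 6.64, 6.74, 6.67 and 6.66 in control colons. The lowest inflamed colon, moderate replicate 2, was still more than 1 log2 unit above the highest control. Psat1 rose by 1.94 (standard error 0.20, limma adjusted p = 2.01e-05), or 3.83-fold, and by 2.15 in its second probe set. Psph, the phosphatase that releases serine in the last step, read 8.05, 7.67 and 7.61 in severe, 7.43, 7.27 and 7.73 in moderate and 6.51, 6.88, 6.62 and 6.80 in control colons. It rose by 0.92 (standard error 0.14, adjusted p = 0.000246), or 1.90-fold.

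Shmt2 and Mthfd2, the mitochondrial enzymes that take the carbon of serine onto folate and oxidise it, rose as well. Shmt2, which splits serine into glycine and a folate-bound carbon, read 8.39, 7.94 and 8.19 in severe, 7.88, 7.67 and 8.14 in moderate and 6.31, 6.14, 6.64 and 6.24 in control colons. No inflamed colon came within 1 log2 unit of a control. Shmt2 rose by 1.70 (standard error 0.14, limma adjusted p = 6.24e-06), or 3.25-fold, by its brightest probe set. The other 3 probe sets rose by 0.79, 0.82 and 0.77, so that the mean over all 4 rose by 1.02 (adjusted p = 6.68e-06). The direction was shared by all 4 probe sets and the size was not. The brightest and 2 of the dimmer probe sets carry the suffix for possible cross-binding, and the 1 without it is that at 0.82. Mthfd2, which oxidises the folate-bound carbon, read 8.30, 7.89 and 7.97 in severe, 7.94, 7.83 and 7.88 in moderate and 6.80, 6.44, 7.07 and 6.81 in control colons. It rose by 1.19 (standard error 0.12, adjusted p = 2.28e-05), or 2.28-fold, and by 1.22 in its second probe set.

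**Figure D2:**
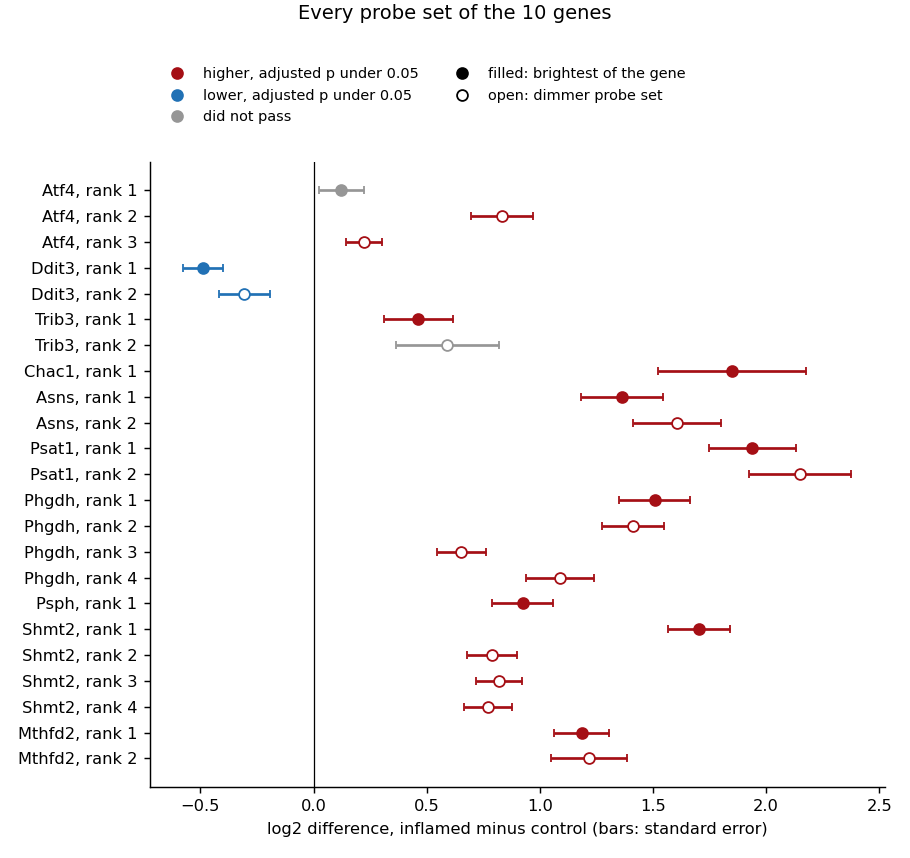
Log2 difference, inflamed minus control (horizontal axis, bars are standard errors), for each of the 23 probe sets, ranked within a gene by mean value (filled, brightest; open, dimmer). All Phgdh, Shmt2, Psat1, Asns and Mthfd2 probe sets lie on the right and both Ddit3 probe sets on the left, while the Atf4 probe sets lie at 0.12, 0.83 and 0.22.

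Severity was examined next, with severe and moderate colons set against the same 4 controls, so that the first 2 comparisons below are not independent. In severe colons 8 of the 10 genes rose and Ddit3 fell, against 16.1% higher and 18.9% lower over all genes. Atf4 was the gene that did not pass (0.23, standard error 0.11, limma adjusted p = 0.132). In moderate colons 7 rose and Ddit3 fell, against 13.2% higher and 16.7% lower over all genes. Those not passing were Atf4 (0.02, adjusted p = 0.91) and Trib3 (0.28, standard error 0.16, adjusted p = 0.216), and Trib3 rose by 0.64 in severe colons (adjusted p = 0.00911), a call that the methods' t-test did not give (adjusted p = 0.0629). By its second probe set, Atf4 rose by 1.05 in severe colons (adjusted p = 5.07e-05 over all probe sets) and by 0.61 in moderate colons (adjusted p = 0.00228).

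The biosynthetic genes had risen in both grades. The log2 difference of Psat1 from control was 2.05 in severe and 1.83 in moderate colons (standard error 0.23 for each). That of Shmt2 was 1.84 in severe and 1.56 in moderate colons, and that of Phgdh 1.64 in severe and 1.38 in moderate colons. Mthfd2 differed by 1.27 in severe and 1.10 in moderate colons, and Psph by 1.07 in severe and 0.78 in moderate colons. The gap between the grades was wider for Asns, at 1.63 in severe and 1.10 in moderate colons. Ddit3 differed from control by -0.48 in severe and -0.50 in moderate colons.

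In the direct comparison of severe with moderate colons no gene of the 10 passed, and none of all genes did (0% called higher and 0% lower). At an unadjusted p under 0.05 there were 922 of 18193 genes with limma and 643 with the methods' t-test, of which 2 and 1 were among the 10. Chac1 had the lowest p of the 10, with a difference of 1.25, or 2.37-fold (standard error 0.22, limma adjusted p = 0.36, unadjusted p = 0.000177). Asns differed by 0.53 (standard error 0.18, adjusted p = 0.888, unadjusted p = 0.0142). Severe and moderate values did not overlap for 3 of the 10 genes, Chac1, Asns and Atf4, and for 8% of all genes. The mean of the severe colons was above that of the moderate colons in 10 of the 10 genes, against 48.6% of all genes. Cell type markers differed between the grades too: the median log2 difference of severe from moderate colon was 0.94 for neutrophil, 0.35 for macrophage and monocyte, 0.18 for T cell, -0.54 for absorptive colonocyte, -0.36 for smooth muscle, -0.18 for goblet cell, -0.01 for dividing cell and -0.01 for pan-epithelial genes. List means overlapped between the grades for macrophages (8.27 to 9.56 in severe, 8.21 to 9.13 in moderate) and for neutrophils (7.37 to 8.69 in severe, 6.42 to 7.47 in moderate), no single marker passed, and their part in the differences was not tested. For Psat1 the difference was 0.22 with a standard error of 0.25, and for Ddit3 it was 0.02 with a standard error of 0.12.

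**Figure D3:**
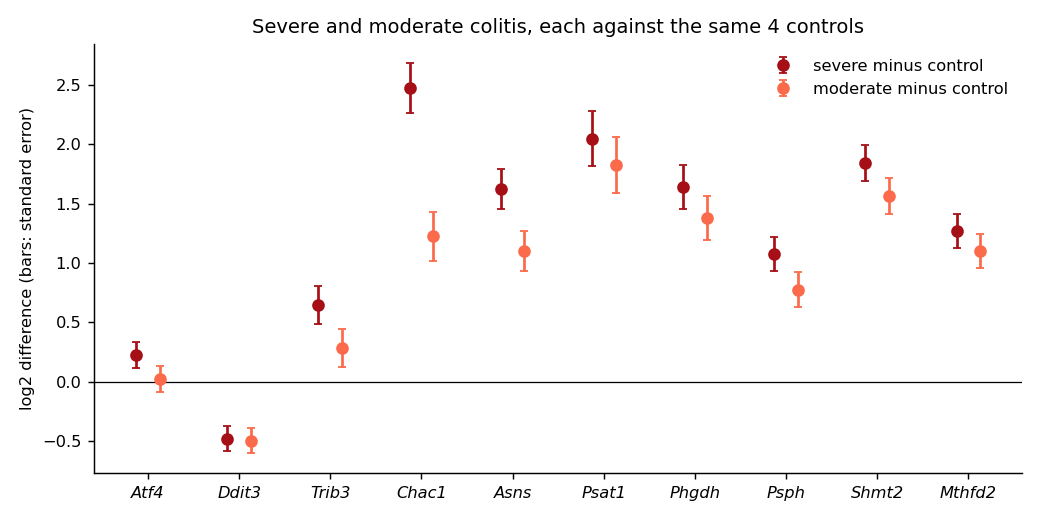
Log2 difference from the 4 control colons (vertical axis, bars are standard errors) for severe and moderate colons, gene by gene. Chac1 has the widest gap, 2.47 in severe against 1.23 in moderate colons, and Ddit3 lies at about the same level in both.

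Severe replicate 1 had the highest value of all 10 arrays in 7 of the 8 genes that rose, the other being Phgdh, where moderate replicate 3 was highest. Moderate replicate 2 had the lowest value of the 6 inflamed colons in 5 of the 8. Moderate replicate 3, the highest for Phgdh, was the lowest of the inflamed colons for Chac1. Leaving out severe replicate 1 ended no call among the 10 genes in inflamed against control colon.

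A list of 13 measured genes held kinases, phosphatases and partners of ATF4, and also stress-response genes such as Ddit4 and Sesn2. Of the 13 genes, 6 rose, 1 fell and 6 did not pass, with a median difference of 0.10, against 18.5% higher and 21.2% lower over all genes. Cebpb, a C/EBP factor that pairs with ATF4 and also serves acute inflammation, rose by 1.68 (limma adjusted p = 2.56e-05). Ddit4, an inhibitor of mTORC1, rose by 0.95, and Ppp1r15a, the stress-induced subunit of the phosphatase that reverses eIF2 phosphorylation, rose by 0.42. Eif2ak3, the PERK kinase of the endoplasmic reticulum, rose by 0.41, and Eif2ak4, the GCN2 kinase that senses uncharged tRNA, fell by 0.48, with a dimmer probe set at -0.05 and a mean over both of -0.27. Atf3, another factor of the stress arm, differed by 0.00 (adjusted p = 0.993), and Sesn2, a leucine sensor that ATF4 induces, by 0.10.

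Of 25 further targets of ATF4 measured, 10 rose, 6 fell and 9 did not pass, with a median of 0.20, against 18.5% higher and 21.2% lower over all genes. Slc7a11, the cystine transporter, averaged 6.58 in inflamed and 4.56 in control colons and so rose by 2.03 (standard error 0.27, limma adjusted p = 0.000112). Eif4ebp1, a translational repressor, rose by 1.53 and Slc7a5, the transporter of large neutral amino acids, by 1.36. Gpt2, a mitochondrial alanine aminotransferase, fell by 1.48, Cth, which makes cysteine from cystathionine, fell by 1.29, and Slc1a5, a glutamine transporter, fell by 1.003. Enzymes that load tRNA with amino acids, many of them ATF4 targets, rose in 16 of 19 cases, against 18.5% of all genes, with a median of 0.49 against 0.03 over all genes. Wars, the tryptophan enzyme and also a target of interferon gamma, rose by 2.00, and Hars and Aars rose by 0.78 each. Those not passing were Eprs (-0.11), Farsb (0.06) and Kars (0.23).

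**Figure D4:**
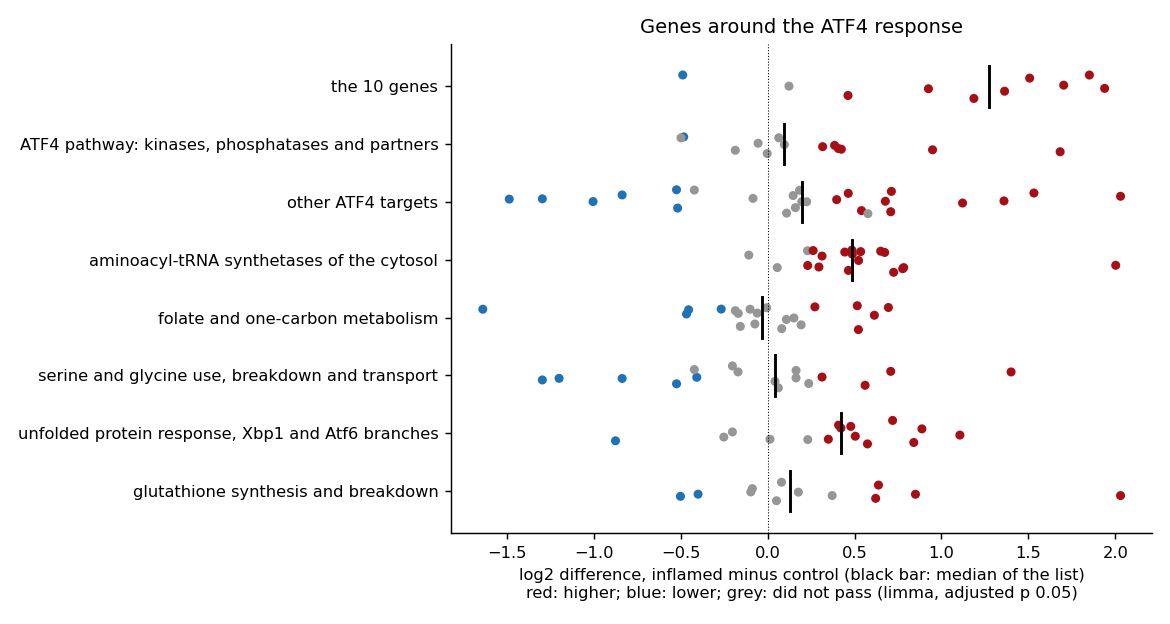
Log2 difference, inflamed minus control (horizontal axis), of each measured gene in the 10-gene set and in 7 lists around it, 1 point per gene, with the list median as a black bar and the test result as colour. The 10 genes have a median of 1.27, the tRNA enzymes lie mostly to the right around 0.49, and the folate list is spread on both sides around -0.03.

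Of 20 further genes of folate metabolism, 5 rose, 4 fell and 11 did not pass, with a median of -0.03. These counts are near the shares over all genes, 18.5% higher and 21.2% lower. Shmt1, the cytosolic counterpart of Shmt2, averaged 8.12 in inflamed and 8.59 in control colons and fell by 0.47 (limma adjusted p = 0.000741). Mthfd1, the cytosolic enzyme of 3 activities, fell by 0.45 (adjusted p = 0.0105), Gcsh of the glycine cleavage system fell by 0.27, and Ggh, which trims folate polyglutamate chains, fell by 1.64. Mthfd1l, which completes the mitochondrial path to formate, rose by 0.52 (adjusted p = 0.0109). Mthfd2l, a close relative of Mthfd2, differed by -0.16 in its brightest probe set (adjusted p = 0.319), while its 3 dimmer probe sets were higher by 0.68, 0.44 and 0.60 and passed. The mean over its probe sets was higher by 0.39 (adjusted p = 0.00828), so that neither direction nor call is settled for this gene. Mtr, methionine synthase, rose by 0.69, Aldh1l1 by 0.61 (0.35 when its probe sets were averaged), Mthfs by 0.52 and Atic by 0.27, and Atic did not pass when its probe sets were averaged (adjusted p = 0.11).

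**Figure D5:**
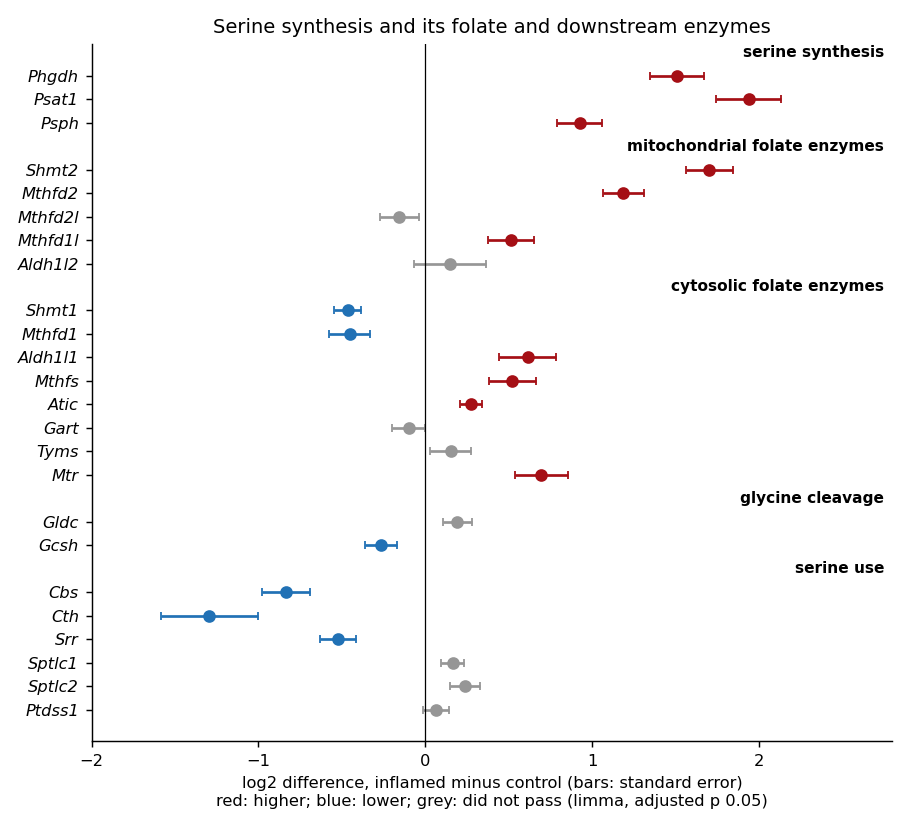
Log2 difference, inflamed minus control (horizontal axis, bars are standard errors), for the enzymes of serine synthesis, the folate enzymes of mitochondria and cytosol, glycine cleavage and enzymes that use serine. The serine synthesis enzymes lie between 0.92 and 1.94, Shmt2 at 1.70 and its cytosolic counterpart Shmt1 at -0.47, each by the brightest probe set of the gene.

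Of 17 genes measured that use, break down or carry serine and glycine, 4 rose, 5 fell and 8 did not pass, with a median of 0.04. By the brightest probe sets these counts too are near the 18.5% higher and 21.2% lower of all genes. With arrays centred or quantile normalization repeated 6 rose, and by the mean over probe sets 5 rose and 7 fell. Alas1, which joins glycine to succinyl-CoA in the first step of heme synthesis, rose by 1.40 (limma adjusted p = 2.65e-05), Slc6a9, a glycine transporter, by 0.71, Serinc2 by 0.56 and Sars, the serine enzyme for tRNA, by 0.31. Both enzymes that turn serine and homocysteine into cysteine fell, Cbs by 0.84 (adjusted p = 0.000752) and Cth by 1.29. Serinc5 fell by 1.20, the serine racemase Srr by 0.52 and Serinc1 by 0.41. The serine palmitoyltransferase subunits that begin sphingolipid synthesis did not pass by their brightest probe sets, with 0.16 for Sptlc1 and 0.24 for Sptlc2. By the mean over its 4 probe sets Sptlc1 was higher by 0.22 and passed (adjusted p = 0.00531), and Sptlc2 did not (0.06, adjusted p = 0.652).

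The branches of the unfolded protein response that do not run through ATF4 rose in 10 of 15 genes, fell in 1 and did not pass in 4, with a median of 0.42, against 18.5% higher and 21.2% lower over all genes. Creld2 rose by 1.11, Manf by 0.89, Hyou1 by 0.84 and Hspa5, the main chaperone of the endoplasmic reticulum, by 0.72 (limma adjusted p = 7.39e-06). Ern2, the IRE1 sensor of goblet cells, fell by 0.87. Of the 10 goblet cell genes 4 fell, and their part in this was not tested. In glutathione metabolism, where Chac1 acts, 4 of 12 rose, 2 fell and 6 did not pass, with a median of 0.13, against 18.5% higher and 21.2% lower over all genes. Slc7a11 is counted here too. Ggct rose by 0.85 (0.47 when its probe sets were averaged), Gsr by 0.64 and Chac2, the constitutive relative of Chac1, by 0.62. Oplah fell by 0.50 and Ggt6 by 0.40.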

How the data were processed

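Distal colon of 10 mice was measured, and what was deposited is 1 log2 value for each probe set on each array. The authors made them from scanned Affymetrix whole-genome mouse arrays with Expression Console and RMA (submitters' processing notes, which give no version), which corrects the background, gives all arrays a common distribution and summarises the probes of a probe set. A common distribution sets each difference relative to the other genes of the array. Array medians lay between 5.36 and 5.40. The labels give Trizol as the extraction and the methods give a Qiagen kit. Scan dates and detection calls were not used here, so batches and signal over background were not examined.

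Of 45101 probe sets, 34945 are annotated to 1 gene, 932 to several, 9160 to none and 64 are controls. For each of 18193 genes the brightest probe set by mean was taken (9010 genes have more than 1). Gene identifiers of 34741 probe sets were in the RefSeq table, which changed 0 symbols. The test was limma's (version 3.58.1, R 4.3.3, lmFit and eBayes, two-sided). P-values were adjusted over all genes by Benjamini-Hochberg and called under 0.05, in a model of 2 groups for inflamed against control and of 3 groups otherwise. Probe sets were tested in a fit of their own. The labels call the samples biological replicates. The procedure was tested on simulated data. For inflamed against control it recovered 62.7% of changes of 0.5 log2 units and 92.5% of changes of 1. For severe against moderate it recovered 35.8% and 76.1%, so smaller differences between the grades can go uncalled. Promoters of 300 bases came from RefSeq.

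The 10 genes and the lists were chosen with earlier results of these data known. The lists were written from general knowledge and are described by counts and medians. The rule for naming genes took all 10 genes, the 3 largest rises and 3 largest falls of each list among calls with no overlap, members behind a count of 5 or fewer, and the 5 genes most like Atf4. Other genes named were chosen after their values were seen, as was the word TGCAATC. Alternatives changed the value per gene, the features tested, a filter on dim genes and the scaling and weights of arrays. They also changed the variance model, the groups fitted, a replicate block and the arrays included. Another replaced the test by the unpaired t-test that a figure legend of the study names, here adjusted over all genes.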

Additional observations from a re-analysis of the deposited data

Results flagged for a closer look

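In 5 of 46 groups of values over the 23 probe sets, 1 colon stood far from the rest of its group by Dixon's criterion, which chance meets in about 1 group in 20. Severe replicate 1 was high among the 6 inflamed colons for the brightest Mthfd2 probe set (8.30, the others 7.83 to 7.97) and for the dimmer Trib3 probe set (6.42, the others 4.87 to 5.39). Severe replicate 2 was high among the inflamed colons for the dimmer Ddit3 probe set (5.76, the others 5.14 to 5.29). Control replicate 4 was high among controls for the dimmer Trib3 probe set (4.92, the others 4.76 to 4.78), and control replicate 2 was low for the dimmer Asns probe set (7.55, the others 8.05 to 8.07).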

How the results depend on the processing

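The counts of genes of the set called higher and lower in the 4 comparisons stayed within 1.5 times the reported count under all 160 combinations of count and setting. For severe against moderate colon every count was 0, where few or no genes of the whole array passed. The count called higher in inflamed colon moved between 7 and 9. Of the 10 genes, 8 kept direction and call in inflamed against control colon under all 20 settings each (160 in all). The exceptions were Atf4 and Trib3. Atf4 passed by the mean over its probe sets in inflamed (0.39, adjusted p = 0.00279), severe (0.53, adjusted p = 0.000222) and moderate colons (0.26, adjusted p = 0.0153), and in severe colons with each array centred on its median (0.28, adjusted p = 0.0456). By the unpaired t-test adjusted over all genes, Trib3 did not pass in inflamed (adjusted p = 0.0699) or severe against control colon (adjusted p = 0.0629). Leaving out each array gave Trib3 differences of 0.34 to 0.53 in inflamed against control colon. Its adjusted p ranged from 0.0134 to 0.0879 over all settings. The numbers did not meet the criterion for pairing in every pair: deviations of same-numbered control and inflamed colons correlated at -0.08 to 0.06, and those of severe and moderate colons at 0.29, 0.25 and -0.03 for numbers 1, 2 and 3. Of the 10 arrays 4 matched their own number best, severe and moderate replicates 1 and 2. With a replicate block 7 genes of the set rose and 1 fell in inflamed colon, Trib3 at 0.51 no longer passing (adjusted p = 0.0563), and over all genes 3028 were higher and 3597 lower. Centring arrays raised the share of higher calls over all genes to 56.4%, against 46.7%, moved the median of all genes to 0.09, and left 1 gene lower in the glutathione list. In severe against moderate colon the lowest adjusted p of the set was 0.122 over all settings. Without moderate replicate 2, 20 of all genes passed there, 5 without severe replicate 2 and 1 without moderate replicate 1, none of them in the set. The cause of these shifts was not tested.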
